A study of Zea mays with 9 samples.

Results

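Plant shoot meristems keep a small group of stem cells at their tip, in the central zone (CZ), and form leaf primordia on their flanks. Transcription factors of the homeobox families, signals that restrict meristem size and the hormones cytokinin and auxin act in setting these cells apart from the leaf. miRNAs, which the enzyme DCL1 cuts out of longer precursor transcripts, repress several of the transcription factors involved. The 200 genes described here are those that differed most toward the CZ between wild-type CZ and wild-type P3 primordia of maize, the third-youngest leaf primordia of the apex, and the question is how their levels compare in *dcl1-2*, a hypomorphic allele of *DCL1*.

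The members were chosen from 45498 rows of a table of read counts, of which 45343 could be ranked. Counts were divided by the library total and scaled to 1000000 reads (RPM), and the rows were ordered by log2 of (mean RPM in wild-type CZ + 1) over (mean RPM in wild-type P3 + 1). The 200 highest rows were taken. The 4 wild-type libraries therefore chose the members, and every wild-type value below is a description with no test. The 4 *dcl1-2* libraries took no part in the choice.

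RNA came from CZ cells and P3 primordia that were captured by laser microdissection from 14-d-old seedlings of the inbred B73, either wild type or carrying *dcl1-2* introgressed into B73 (the labels spell it dc1-2). According to the study, mutants were compared with sibling seedlings and each replicate pooled several apices. Each of the 4 combinations of genotype and tissue had 2 libraries, and SD below is over n = 2. All 4 groups were linearly amplified before library construction, with a kit that the labels and the study name differently. The CZ libraries were single-end and the P3 libraries paired-end, so that tissue and library layout cannot be told apart in any comparison of CZ with P3. A hypomorphic allele limits the mutant groups as a model, because some miRNA processing remains.

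The CZ libraries held 24753974 to 30327603 counts and those of P3 8626824 to 10328582. A single count was therefore worth 0.0330 to 0.0404 RPM in a CZ library and 0.0968 to 0.116 RPM in a P3 library. *DCL1* transcripts were present in all 8 libraries at 62.2 to 141 RPM, and since the allele is hypomorphic this level does not check the genotype. The label of the CZ libraries was checked with genes named for other tissues. A list of 26 genes of leaf primordia, named as YABBY or GRF genes (2 of them are 14-3-3 genes with the same symbol), had a sum of 2585 to 3342 RPM in P3, against 1091 to 1192 RPM in the CZ. Much of the CZ sum came from these 2 genes. GRMZM2G102499 gave 426 to 489 RPM of it and differed little between tissues, with 403 to 514 RPM across the P3 libraries. GRMZM2G078641 gave 170 to 176 RPM of it, and 309 to 359 RPM of the P3 sum. The CZ sum therefore overstates the level of the YABBY and other GRF genes there. The sum of 4 epidermal *ocl* genes was 371 to 506 RPM in P3, against 196 to 224 RPM in the CZ. Of these, *ocl1* (GRMZM2G026643) gave 117 to 142 RPM of the CZ sum and 110 to 166 RPM of the P3 sum, with overlap between the wild-type tissues. In the edgeR test below, 3 of the 4 were lower in *dcl1-2* CZ than in *dcl1-2* P3, and *ocl1* was not called. Of the 26 leaf genes, edgeR called 18 lower in *dcl1-2* CZ than in *dcl1-2* P3 and 0 higher. The defining leaf gene *yabby15* (GRMZM2G529859) was at 3.19 to 16.9 RPM in the CZ and at 409 to 535 RPM in P3. Other genes of the list went the other way. *GRF4* (GRMZM2G004619) was at 45.2 to 55.8 RPM in the CZ and at most 39.4 RPM in P3. In wild type, *GRF9* (GRMZM2G124566) was at 13.7 and 16.7 RPM in the CZ and 2.59 and 2.67 in P3. *GRF10* (GRMZM2G096709) was also higher in wild-type CZ, without overlap. The vascular sucrose transporter *sut1* (GRMZM2G034302), the only vascular marker matched, was at 0.116 RPM in 1 wild-type P3 library and 0 in all others. Being nearly absent from P3 as well, it cannot show whether the CZ libraries held vascular tissue. The stem cell gene *wus1* (GRMZM2G047448), which is no member, was at 1.37 to 5.47 RPM in the CZ and 0 in all P3 libraries. The related *wus2* (GRMZM2G028622), also no member, did not separate the tissues. It was at 0.202 to 0.674 RPM in the CZ, 0.871 RPM in *dcl1-2* P3 replicate 2 and 0 in the other P3 libraries. The part of the remaining leaf and epidermal transcripts in the results was not tested.

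Sequences are shown for the 3 members that the study lists as miRNA targets, because they tie the members to the enzyme that the mutation affects. The mature miRNA is written first, with its seed (bases 2 to 8) in capitals, and the matching site in the transcript second, with the bases that form no Watson-Crick pair with the miRNA in capitals. Both come from the study's supplementary sequence lists and run 5′ to 3′. Of the mature sequences of a family with the length of the site, the 1 with the fewest such bases is shown. It is that of *MIR160a*, *b*, *c*, *d* and *g* for miR160, of *MIR164f* for miR164, and of *MIR169i*, *j* and *k* for miR169. Other variants of that length pair no better, so the counts below are the lowest of each family.
miR160: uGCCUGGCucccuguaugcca
*ARF5* site: uAgcauGcagggagccaggca
miR164: uGGAGAAGcagggcacgugcu
*nam1* site: agcUcgugcccugcuucucca
miR169: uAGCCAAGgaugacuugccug
*NF-YA13* site: caggcaaUucauccuuggcuU
In the site of *ARF5*, 2 of 21 bases are unpaired in this sense, 1 of them a G-U pair, and in that of *nam1* 1 of 21. The site of *NF-YA13* has 2 such bases. None of these lies opposite the seed, and *NF-YA13* has 1 opposite base 1 of its miRNA.

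Among the 200 members, the mean in wild-type CZ ranged from 7.93 to 4013 RPM with a median of 46.2 RPM, and the mean in wild-type P3 from 0 to 437 RPM with a median of 1.15 RPM. The ranking value ran from 3.14 to 8.41. GRMZM2G046313, on chromosome 2 (195540468 to 195542349, B73 RefGen_v3), ranked first, with 417 and 333 RPM in wild-type CZ and 0.207 and 0 RPM in wild-type P3. At the other end the values had no gap. The last 5 members ranged from 3.14 to 3.15 and the 5 genes just outside from 3.12 to 3.14, with GRMZM2G444743 the last inside and *gpc4* (GRMZM2G176307), named for a glyceraldehyde-3-phosphate dehydrogenase, the first outside. In wild-type P3 29 members had no count in either library.

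Together the members made up 2.43% and 2.77% of all counts in the wild-type CZ libraries and 2.65% and 2.84% in the *dcl1-2* CZ libraries. In P3 they made up 0.137% and 0.136% of counts in wild type and 0.143% and 0.176% in *dcl1-2*. The sum in *dcl1-2* CZ lay within or just above that of wild-type CZ, and both *dcl1-2* P3 libraries were above both wild-type P3 libraries. A few genes carried much of the sum, since the 10 most abundant members held 42.9% of it in *dcl1-2* CZ. In bulk tissue, fewer cells of a type and less RNA per cell cannot be told apart.

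In the mutant the difference between the tissues was kept by nearly the whole set. All 200 members passed the filter, a mean that reached 1 RPM in *dcl1-2* CZ or *dcl1-2* P3. In the quasi-likelihood test of edgeR over the 4 *dcl1-2* libraries, 199 members were higher in *dcl1-2* CZ than in *dcl1-2* P3, where a call needed an adjusted p below 0.05 and a log2 fold change of 1 or more in size. Of all 22846 genes tested 21.4% were called higher and 28.6% lower, and 0 members were called lower, by edgeR or DESeq2, or at an unadjusted p under 0.05 in edgeR. The median log2 fold change of the members was 5.07 and that of all genes tested −0.03. Adjusted p of the 199 called members ranged from 3.5e-12 to 0.00169 by edgeR. Among the 183 members with a count in *dcl1-2* P3 the highest log2 fold change was 9.50, and the lowest of a called member was 1.73. With 2 libraries a group, the p-values measure only the spread between these pools of apices. Both *dcl1-2* CZ libraries were above both *dcl1-2* P3 libraries in 199 members, against 39.6% of the genes tested.

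**Figure D1:**
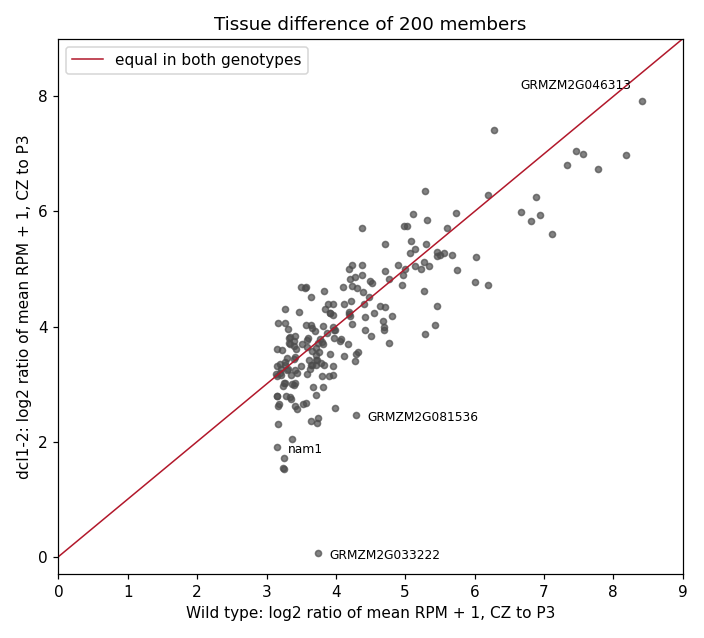
Log2 ratio of mean RPM + 1, CZ to P3, of the 200 members in wild type (x axis) and in *dcl1-2* (y axis), 1 point per member, with the line of equal ratios. The left edge at 3.14 is set by the ranking in wild type, and in *dcl1-2* GRMZM2G033222 lies near 0 while the other members stay above it.

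On the scale of RPM + 1, the median log2 ratio of CZ to P3 was 3.91 in wild type and 3.93 in *dcl1-2*, as the plot of both ratios shows, and over all rows that averaged at least 1 RPM in any group it was −0.21 and −0.11. When the ranking was repeated in the *dcl1-2* libraries alone, 145 of the 200 members were again among the 200 highest rows and 182 among the 400 highest. The median member ranked 112 there. Of the 20 members that ranked highest in wild type, 14 were among the 20 highest in *dcl1-2*. The member that fell farthest was GRMZM2G033222, at rank 12577.

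**Figure D2:**
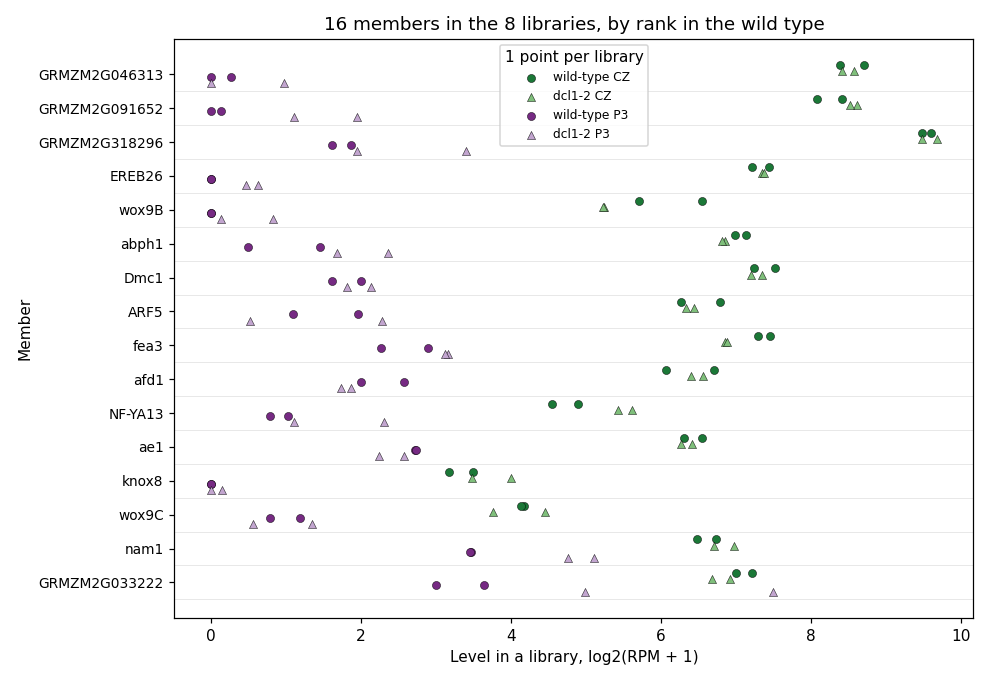
Level of 16 members in each of the 8 libraries, as log2(RPM + 1), ordered by rank in wild type, with 1 point per library, circles for wild type and triangles for *dcl1-2*. The CZ points (green) stand to the right of the P3 points (purple) except in GRMZM2G033222, where 1 *dcl1-2* P3 library, at 179.9 RPM, is the highest of the 8.

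Of the 10 members that ranked highest, *EREB26* alone has a gene name in the annotation used. GRMZM2G091652 was at 269 and 339 RPM in the CZ of wild type and 391 and 365 in that of *dcl1-2*, and in P3 at 0.103 and 0 for wild type and 2.86 and 1.16 for *dcl1-2*. GRMZM2G318296 was at 709 and 776 RPM in the CZ of wild type and 712 and 819.6 in that of *dcl1-2*, and in P3 at 2.07 and 2.67 for wild type and 2.86 and 9.59 for *dcl1-2*. Both genes had overlapping or higher values in the mutant CZ and a low but higher level in the mutant P3 libraries. *EREB26* (GRMZM2G317160), an AP2/ERF transcription factor, was at 172 and 147 RPM in wild-type CZ, 161 and 165 in *dcl1-2* CZ, 0 in both wild-type P3 libraries, and 0.550 and 0.387 in *dcl1-2* P3. It was 8.51 ± 0.22 higher (log2 fold change ± SE, edgeR adjusted p = 2.1e-11) in *dcl1-2* CZ than in *dcl1-2* P3. GRMZM2G046313, the first in rank, was at 339 and 378 RPM in *dcl1-2* CZ and at 0 and 0.968 in *dcl1-2* P3, a log2 fold change of 9.50 ± 0.32 (edgeR adjusted p = 1.4e-10).

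Members without counts in a mutant tissue allow only a lower bound. In *dcl1-2* P3 17 members had no count in either library, and 13 members had none in any of the 4 P3 libraries. Against 3 counts over both libraries, the approximate upper limit at 95% confidence for a count of 0, these 17 were at least 33.3-fold to at least 245-fold higher in *dcl1-2* CZ by mean RPM. The largest bound was that of GRMZM2G031001, at 37.4 and 38.4 RPM in *dcl1-2* CZ. In *dcl1-2* CZ itself no member was at 0, and the lowest mean was 5.14 RPM, in GRMZM2G135085. With these 17 at their bound, the median log2 fold change of the members was 5.05. Such limits cover counting error only, since amplified reads are not independent molecules.

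Genes with a role in meristem size and homeobox genes were among the members. Of 8 tested genes on a list of regulators of meristem size, 3 were higher in *dcl1-2* CZ and 0 lower, with a median log2 fold change of 0.29, and 2 of the 3 are members. *abph1* (GRMZM2G035688, chromosome 2), a response regulator of cytokinin signalling that sets leaf arrangement in maize, was at 126 and 139.8 RPM in wild-type CZ and 115 and 111 in *dcl1-2* CZ. In P3 it was at 0.414 and 1.74 RPM in wild type and 2.20 and 4.16 in *dcl1-2*. The CZ values of *abph1* were lower in the mutant and the P3 values higher, without overlap in either tissue. Its log2 fold change between the mutant tissues was 5.20 ± 0.23 (edgeR adjusted p = 1.1e-09). *fea3* (GRMZM2G166524, chromosome 3), a leucine-rich repeat receptor-like protein that restricts meristem size, was at 155 and 174 RPM in the CZ of wild type and 114 and 117 in that of *dcl1-2*, and in P3 at 6.41 and 3.83 for wild type and 7.93 and 7.75 for *dcl1-2*. The same order held for *fea3*, with a log2 fold change of 3.96 ± 0.16 between the mutant tissues (edgeR adjusted p = 6.0e-10). Other regulators on the list, *fea2*, *fea4*, *cr4*, *ct2* and *td1*, were not called, with log2 fold changes from −0.81 to 0.59.

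Of 30 homeobox genes tested, 15 were higher in *dcl1-2* CZ and 6 lower, with a median log2 fold change of 1.22, and 3 are members. *wox9B* (GRMZM2G031882), a WUSCHEL-related homeobox gene, was at 51.4 and 92.8 RPM in wild-type CZ, 36.9 and 36.5 in *dcl1-2* CZ, 0 in both wild-type P3 libraries, and 0.771 and 0.0968 in *dcl1-2* P3. Both mutant CZ libraries were below both wild-type libraries, which themselves differed by more than the mutant pair. The related *wox9C* (GRMZM2G409881) was at 17.1 and 16.5 RPM in wild-type CZ and 12.6 and 20.9 in *dcl1-2* CZ, and its groups overlapped in both tissues. *knox8* (GRMZM2G135447), a KNOTTED1-like homeobox gene, was at 10.3 and 8.04 RPM in wild-type CZ and 10.2 and 15.1 in *dcl1-2* CZ, and in P3 it had counts in 1 *dcl1-2* library, at 0.110 RPM. Between the mutant tissues, the log2 fold changes were 6.52 ± 0.44 for *wox9B* (edgeR adjusted p = 6.2e-08), 4.15 ± 0.50 for *wox9C* (edgeR adjusted p = 1.1e-05) and 7.82 ± 0.73 for *knox8* (edgeR adjusted p = 1.2e-06).

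*Dmc1* and *afd1*, chosen for their names after their values were seen, are known for roles in meiosis and ranked 21 and 86. *Dmc1* (GRMZM2G109618), the recombinase of meiotic strand exchange, was at 149 and 182 RPM in the CZ of wild type and 146 and 161 in that of *dcl1-2*, and in P3 at 2.07 and 3.01 for wild type and 3.41 and 2.52 for *dcl1-2*. *afd1* (GRMZM2G059037), which encodes the meiotic cohesin subunit REC8, was at 65.8 and 103 RPM in the CZ of wild type and 93.3 and 83.6 in that of *dcl1-2*, and in P3 at 4.97 and 3.01 for wild type and 2.64 and 2.32 for *dcl1-2*. In the CZ the genotypes overlapped for both genes. *Dmc1* was higher in *dcl1-2* CZ than in *dcl1-2* P3 by a log2 fold change of 5.78 ± 0.19 (edgeR adjusted p = 9.7e-11), and *afd1* by 5.23 ± 0.21 (edgeR adjusted p = 5.5e-10).

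Among the other lists of named genes, 4 held members. Of 48 hormone genes tested, 17 were higher in *dcl1-2* CZ and 16 lower (median log2 fold change 0.09), and *abph1* and *ARF5* are members. Of 24 genes of organ boundaries, 8 were higher and 6 lower (median 0.26), and *nam1* is a member. Of 177 transcription factors named by family, 36 were higher and 71 lower (median −0.58), with *EREB26*, *MYBR90* and *WRKY45* as members. Stress genes split into 9 higher and 24 lower of 51 (median −0.82), and the 2 members among them are heat shock genes with a wide spread between replicates. *hsp18f* (GRMZM2G083810), named for a small heat shock protein, was at 231 and 67.8 RPM in wild-type CZ and 131 and 409 in *dcl1-2* CZ. *Hsp70* (GRMZM2G310431), a chaperone, was at 242 and 110 RPM in wild-type CZ and 167 and 244 in *dcl1-2* CZ. For these heat shock genes the CZ replicates of one genotype differed by more than the genotype means, and no genotype difference was detectable in the CZ. In P3 *Hsp70* was at 10.97 and 4.06 RPM in wild type and at 1.21 and 4.65 in *dcl1-2*, with overlap between the genotypes. The remaining lists held 0 members. They were 42 genes of leaf polarity and leaf primordia (3 higher, 26 lower), 26 epidermal genes (5 higher, 14 lower) and 7 vascular genes (1 higher, 2 lower). The others were 40 genes of the cell cycle and chromatin (3 higher, 19 lower) and 39 of flowering and phase change (10 higher, 10 lower). A last list had 35 genes of ribosomes and translation (6 higher, 2 lower). The members are 200 of the 22846 genes tested, so lists this short can hold none whatever their genes, and their absence was not tested.

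Enzymes and structural genes with a name were few. *ae1* (GRMZM2G032628), a starch branching enzyme, was at 78.3 and 92.1 RPM in the CZ of wild type and 76.0 and 84.0 in that of *dcl1-2*, and in P3 at 5.59 and 5.68 for wild type and 3.74 and 4.94 for *dcl1-2*. *TUBB2* (GRMZM2G334899), a beta-tubulin, was at 214 and 214 RPM in the CZ of wild type and 163 and 137 in that of *dcl1-2*, and in P3 at 15.6 and 13.2 for wild type and 15.1 and 17.3 for *dcl1-2*. The CZ values of *TUBB2* were thus lower in the mutant without overlap, and those of *ae1* overlapped. Named signalling genes were the kinases *SnRK2.11* and *Pti1* and the phosphatase *PP2C15*. Their log2 fold changes between the mutant tissues were 5.34 ± 0.41, 5.89 ± 0.27 and 7.55 ± 0.62. That of *PP2C15* rests on 0 and 2 counts in *dcl1-2* P3, so its size is poorly determined. Of the 200 members 97 were found in the annotation table and 24 of them had a gene name.

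The most abundant member was GRMZM2G051879, on chromosome 1, at 3418 and 4608 RPM in the CZ of wild type and 3983 and 4383 in that of *dcl1-2*, and in P3 at 452 and 423 for wild type and 401 and 420 for *dcl1-2*. It is an example of a member that is not restricted to the CZ, since its level in P3 was above the CZ level of most other members. GRMZM2G150827 was second, at 1045 and 1359 RPM in the CZ of wild type and 1261 and 1554 in that of *dcl1-2*, and in P3 at 15.4 and 13.6 for wild type and 4.84 and 9.59 for *dcl1-2*. Comparing such levels between genes takes no account of transcript length.

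The 1 member that was not called was GRMZM2G033222, on chromosome 3 (4843282 to 4844855), which the annotation does not name. It was at 147 and 127 RPM in the CZ of wild type and 101 and 120 in that of *dcl1-2*, and in P3 at 7.03 and 11.5 for wild type and 30.8 and 179.9 for *dcl1-2*. The *dcl1-2* P3 libraries differed more from each other than *dcl1-2* CZ from wild-type CZ, and the log2 fold change between the mutant tissues was 0.14 ± 0.48 (edgeR adjusted p = 0.804). Without *dcl1-2* P3 replicate 2 it was 1.93 (edgeR adjusted p = 5.8e-05), and without *dcl1-2* P3 replicate 1 it was −0.62 (edgeR adjusted p = 0.00832). A second gene model, GRMZM5G867776, overlaps it and was at 0 to 0.0793 RPM in the CZ, 0.621 and 1.16 in wild-type P3, and 2.53 and 32.0 in *dcl1-2* P3. Both models were thus highest in the same library.

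Among the called members, a few had a small tissue difference in the mutant. GRMZM2G577979 had the lowest log2 fold change of the called members, 1.73 ± 0.28 (edgeR adjusted p = 0.00016), with 22.02 and 26.9 RPM in *dcl1-2* CZ and 6.06 and 9.39 in *dcl1-2* P3 against 1.03 and 1.85 in wild-type P3. GRMZM2G034385 was at 226 and 169 RPM in *dcl1-2* CZ and 41.3 and 77.3 in *dcl1-2* P3, against 17.4 in each wild-type P3 library. GRMZM2G081536, on chromosome 8, was at 174 and 151 RPM in *dcl1-2* CZ, 3.93 and 5.68 in wild-type P3, and 13.1 and 44.4 in *dcl1-2* P3. In all 3 genes both mutant P3 libraries were above both wild-type P3 libraries, and replicate 2 was the higher one.

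Between genotypes, the members' levels in the CZ differed little. The median log2 ratio of *dcl1-2* to wild type, on RPM + 1, was 0.04 for the members and 0.01 for all 23512 rows that averaged at least 1 RPM in any group. Of the 200 members 184 were within 1.5-fold. The 1st and 3rd quartiles of the log2 ratio were −0.18 and 0.24 for the members and −0.16 and 0.19 for all rows. Since the rule favoured high wild-type CZ and low wild-type P3 values, these ratios are not independent of it and were not tested. Both *dcl1-2* CZ libraries were above both wild-type CZ libraries in 43 members, where the share of all rows is 21.1%, and below in 39, where the share of all rows is 17.6%. A ratio of at least 2 on this scale was reached upward by 2 members, GRMZM2G065617 and GRMZM5G885425, and downward by GRMZM2G027522, with 0.638% and 1.46% of all rows past the same limits.

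GRMZM2G027522, on chromosome 10, was at 97.4 and 82.4 RPM in the CZ of wild type and 33.2 and 38.0 in that of *dcl1-2*, and in P3 at 5.48 and 4.64 for wild type and 2.75 and 3.58 for *dcl1-2*. Its mutant values were the lower ones in both tissues, with a log2 ratio of −1.31 in the CZ and −0.54 in P3. Below it, GRMZM2G085550 was at 13.4 and 13.7 RPM in wild-type CZ and 7.88 and 4.95 in *dcl1-2* CZ, and GRMZM2G119523 at 14.1 and 16.9 RPM in wild-type CZ and 8.97 and 6.90 in *dcl1-2* CZ. On the other side, GRMZM2G065617 was at 14.0 and 8.68 RPM in wild-type CZ and 34.4 and 17.4 in *dcl1-2* CZ. GRMZM5G885425 was at 6.23 and 11.1 RPM in wild-type CZ and 15.3 and 22.4 in *dcl1-2* CZ, and had no count in any P3 library. In both genes the replicates of a genotype were also far apart.

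In P3, where the members are scarce, more of them were higher in the mutant. The median log2 ratio of *dcl1-2* to wild type, on RPM + 1, was 0.11 for the members and −0.07 for all rows. The 1st and 3rd quartiles were −0.14 and 0.43 for the members and −0.31 and 0.18 for all rows. On this scale 152 members were within 1.5-fold, but the added 1 RPM shrinks ratios at such low levels. GRMZM2G004824 was among these 152, though by mean RPM, on few counts, the mutant was 5.87-fold the wild type. Both *dcl1-2* P3 libraries were above both wild-type P3 libraries in 63 members, where the share of all rows is 20.4%, and below in 29, where it is 28.5%. A member with no count in a wild-type P3 library could not lie below it, and 41 and 44 members had none in these 2 libraries. The count below wild type is therefore limited by the choice of members. At least 2-fold on RPM + 1, 17 members were higher and 1 lower in the mutant, against 3.27% and 1.88% of all rows. The 1 lower member was *Hsp70*, with a log2 ratio of −1.12 and overlapping libraries. On TMM effective library sizes 32.5% of the members and 25.5% of all rows were above wild type without overlap. The wild-type P3 values of the members were low by choice, and what part of the excess comes from that choice was not tested. Most of these levels remained far below the CZ. GRMZM2G059392 was at 2.59 and 3.25 RPM in wild-type P3 and 9.25 and 9.29 in *dcl1-2* P3, with 537 and 629 RPM in *dcl1-2* CZ. GRMZM2G135960 had 0.103 and 0.116 RPM in wild-type P3 against 1.32 and 3.39 in the mutant, whose CZ was at 175 and 151 RPM. In the opposite direction, GRMZM2G061704 was at 1.86 and 3.13 RPM in wild-type P3 and 0.771 and 0.775 in *dcl1-2* P3, and GRMZM2G150827, given above, had a log2 ratio of −0.91.

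**Figure D3:**
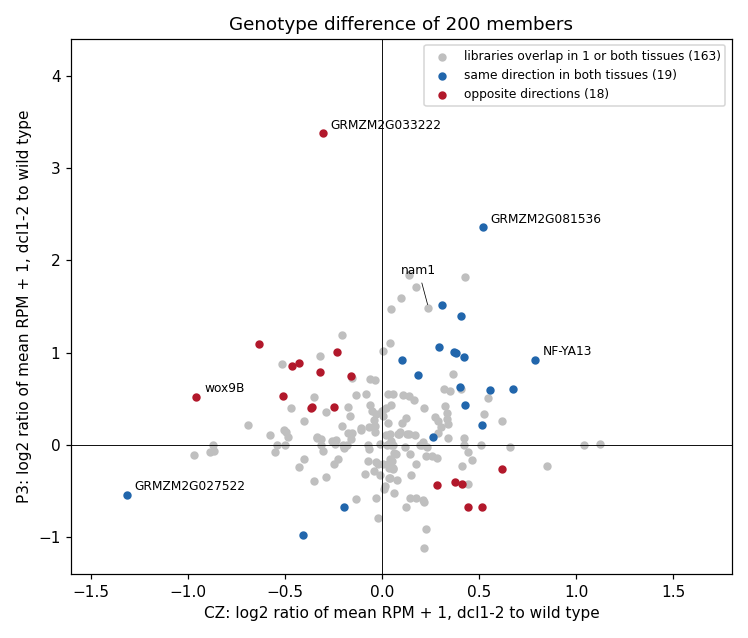
Log2 ratio of mean RPM + 1, *dcl1-2* to wild type, of the 200 members in the CZ (x axis) and in P3 (y axis), 1 point per member. Blue points (19) are members whose genotypes do not overlap and differ in the same direction in both tissues, red points (18) those that do so in opposite directions, and grey points (163) overlap in 1 or both tissues. GRMZM2G033222 has the largest P3 ratio and GRMZM2G027522 the lowest CZ ratio.

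Considering both tissues, 16 members were above wild type in each (3.31% of all rows) and 3 below in each (3.99%). The 3 were GRMZM2G027522, GRMZM2G061704 and GRMZM2G084421, while the 16 included GRMZM2G081536, *nrx1*, *NF-YA13* and GRMZM2G091652. A further 12 were below in the CZ and above in P3 (4.99% of all rows), among them *abph1*, *fea3* and *wox9B*, and 6 were above in the CZ and below in P3 (6.83%). The plot of genotype ratios shows both kinds. Members with no count in a wild-type P3 library could not be below wild type in P3. Only 1 member lay within 5 Mb of *DCL1* (B73 RefGen_v3), of 246 rows in that window. It was GRMZM2G180951, 1.39 Mb from *DCL1*, which was at 19.6 and 18.4 RPM in the CZ of wild type and 29.6 and 25.4 in that of *dcl1-2*, and in P3 at 0.828 and 0.696 for wild type and 0.110 and 0.0968 for *dcl1-2*.

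The miRNA targets among the members were those whose sites are shown above. Of 114 target genes in the study's list that passed the filter, 3 are members, and 0 of 46 genes of the miRNA pathway are. *nam1* (GRMZM2G393433, also named *CUC2*, chromosome 6, 16291162 to 16293492), a NAC transcription factor of the NAM/CUC group, which in Arabidopsis marks organ boundaries and is cut by miR164, was at 87.9 and 105 RPM in wild-type CZ and 125 and 104 in *dcl1-2* CZ. In P3 it was at 10.03 and 9.97 RPM in wild type and 26.1 and 33.6 in *dcl1-2*. The genotypes of *nam1* overlapped in the CZ, and in P3 the mutant mean was 2.98-fold that of wild type with no overlap. Its tissue difference in *dcl1-2* was a log2 fold change of 2.01 ± 0.16 (edgeR adjusted p = 3.2e-07), among the 10 smallest of the members.

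*NF-YA13* (GRMZM5G857944, chromosome 5, 211666408 to 211671351), a subunit of the CCAAT-binding factor NF-Y and of a family that miR169 targets, was at 22.4 and 28.8 RPM in wild-type CZ and 41.9 and 48.0 in *dcl1-2* CZ. In P3 it was at 0.724 and 1.04 RPM in wild type and 3.96 and 1.16 in *dcl1-2*. It was higher in the mutant in both tissues without overlap, 1.75-fold in the CZ by mean RPM. In P3 the gap rested on few counts, as 1 mutant library was close to the wild-type pair. *ARF5* (GRMZM5G808366, chromosome 2, 25424201 to 25429000), an auxin response factor with a miR160 site, was at 75.9 and 109 RPM in the CZ of wild type and 85.6 and 79.8 in that of *dcl1-2*, and in P3 at 1.14 and 2.90 for wild type and 0.440 and 3.87 for *dcl1-2*. The genotypes of *ARF5* overlapped in both tissues. Between the mutant tissues the log2 fold changes were 4.24 ± 0.37 for *NF-YA13* (edgeR adjusted p = 6.7e-07) and 5.28 ± 0.41 for *ARF5* (edgeR adjusted p = 2.3e-07).

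**Figure D4:**
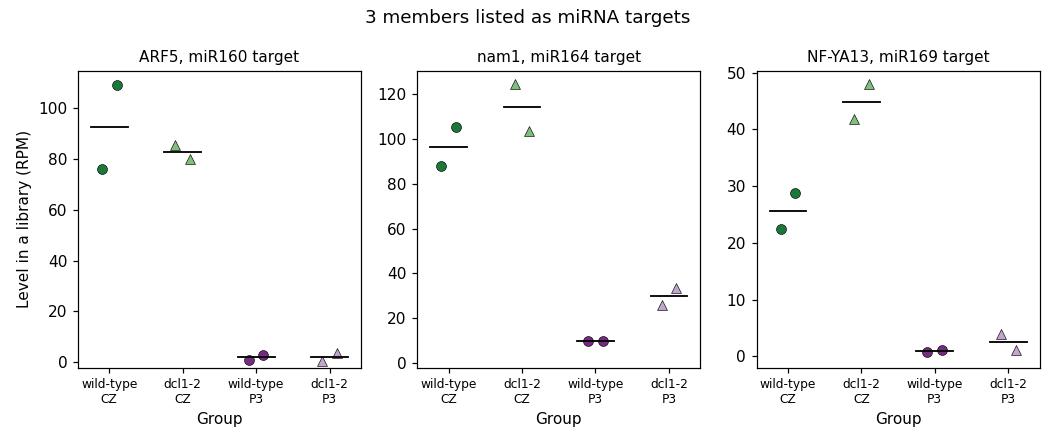
Level in RPM of the 3 members listed as miRNA targets in each library, by group, with 1 point per library and a bar at the mean of 2 libraries; the axes differ between panels. *nam1* stands at 26.1 and 33.6 RPM in *dcl1-2* P3 against 10.03 and 9.97 in wild type, *NF-YA13* at 41.9 and 48.0 RPM in *dcl1-2* CZ against 22.4 and 28.8, and the genotypes of *ARF5* overlap.

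By position, the members were spread over all 10 chromosomes, at 0.655% of the rows kept on chromosome 8 to 1.03% on chromosome 6. The median span of their gene models was 2407.5 bp, against 3444 bp for all rows kept. Only 2 groups of 3 members lay within 500 kb. On chromosome 5, *ae1* and the overlapping models GRMZM2G113332 and GRMZM5G856907 lay between 168451664 and 168673715, and on chromosome 9 GRMZM2G442129 and the overlapping GRMZM5G817301 and GRMZM5G860868 between 68025092 and 68053931. GRMZM2G113332 was at 295 and 252 RPM in the CZ of wild type and 209.9 and 215 in that of *dcl1-2*, and in P3 at 13.3 and 12.1 for wild type and 18.7 and 15.5 for *dcl1-2*, and its partner differed from it by 5.91% of the summed counts.

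Such pairs bear on the count of members. In 6 pairs 2 members overlap on opposite strands, and GRMZM2G356714 and GRMZM5G816214 have identical counts in all libraries. The use of strand in the counting is not stated, so that reads of the 2 genes in a pair cannot be told apart. With 1 gene of each pair, 193 members were called higher by edgeR. A row of any kind overlapped 56 of the 200 members, among them GRMZM2G577979, whose overlapping row GRMZM2G159166 was at 1.45 and 2.55 RPM in wild-type P3 and 9.47 and 13.7 in *dcl1-2* P3. GRMZM5G821582 was at 16.0 and 11.8 RPM in wild-type P3 and 33.2 and 32.6 in *dcl1-2* P3, and its overlapping row GRMZM2G003509 at 53.0 and 48.3 RPM and 104 and 103 RPM.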

How the data were processed

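RNA-seq counts of maize CZ and P3 tissue, wild type and *dcl1-2* (2 libraries a group), were analysed. The deposited counts were made by the authors with Trimmomatic (trimming), TopHat (alignment to B73 RefGen_v3) and HTSeq, from reads that mapped uniquely, and 1 blank count was read as 0. The authors' deposited RPM columns, treated as a score because they sum to over 1000000, served only as an alternative. The small RNA table was not used. RPM was recomputed from the column totals, and 5 named rows and 150 precursor rows were left out of the ranking by the rule. Names came from the table of Zm-B73-REFERENCE-NAM-5.0, used for names only (18883 rows matched).

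*dcl1-2* CZ was tested against *dcl1-2* P3 in R 4.3.3 with edgeR 4.0.16 (glmQLFit and glmQLFTest, TMM factors, limma 3.58.1), on the 22846 genes whose mean reached 1 RPM in either group, with Benjamini-Hochberg adjustment over all of them. SE is the absolute log2 fold change over the square root of F. DESeq2 1.42.0, other normalizations, filters, thinning (seed 11) and leaving out libraries were alternatives. Python 3.11.15 with numpy 2.4.6, pandas 2.3.3 and matplotlib 3.10.9 was used otherwise. The fit was tested on simulated data. The members and lists were chosen with earlier results of these data known. Named members are the 20 highest in rank, the 10 extremes of each comparison, those on a list, miRNA targets, those at the edge of the rule, near *DCL1*, in clusters or most abundant. Not all are printed. *Dmc1*, *afd1*, *TUBB2*, *nrx1*, *SnRK2.11*, *Pti1* and *PP2C15* were chosen after their values were seen, for their names.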

Additional observations from a re-analysis of the deposited data

Results flagged for a closer look

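In 18 of the 200 members both *dcl1-2* libraries lay on one side of both wild-type libraries in the CZ and on the other side in P3. That is a smaller share than the 11.8% of all rows that averaged at least 1 RPM in any group. Some of the P3 gaps rest on few counts. In P3 *wox9B* had 0 and 0 counts in wild type and 7 and 1 in *dcl1-2*, and GRMZM2G180951 had 8 and 6 against 1 and 1. The difference between the tissues was not tested in these members, and their wild-type values were used in choosing them. The value given is the log2 ratio of *dcl1-2* to wild type (mean RPM + 1) in P3 minus that in the CZ. Those below wild type in the CZ and above it in P3 were GRMZM2G033222 (3.68), GRMZM2G039322 (1.73), *wox9B* (GRMZM2G031882, 1.48), GRMZM2G450445 (1.32), GRMZM2G178289 (1.31), *abph1* (GRMZM2G035688, 1.24), GRMZM2G160279 (1.11), *fea3* (GRMZM2G166524, 1.04), GRMZM2G010933 (0.90), the overlapping pair GRMZM5G856907 and GRMZM2G113332 (0.77 each) and GRMZM2G471269 (0.66). Those above wild type in the CZ and below it in P3 were GRMZM2G180951 (−1.19), GRMZM5G899621 (−1.11), GRMZM2G385560 (−0.88), GRMZM2G521686 (−0.84), GRMZM2G086763 (−0.78) and GRMZM2G086486 (−0.72). On TMM effective library sizes 16 of the 18 remained so, with GRMZM2G086486 and GRMZM2G385560 overlapping in 1 tissue, and on the deposited RPM and after thinning to 8626824 counts all 18 did.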

How the results depend on the processing

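The count of members higher in *dcl1-2* CZ was 199 with DESeq2, with other size factors, filters, all 8 libraries, P3 counts divided by 2, thinning and adjusted p alone. Leaving out each *dcl1-2* library in turn, where the lone library is taken to vary like the pair, gave 199 to 200 members and a median log2 fold change of 4.93 to 5.20. The 1 added call, without *dcl1-2* P3 replicate 2, was GRMZM2G033222 (1.93), which was −0.62 without *dcl1-2* P3 replicate 1. Of 1131 values of 87 named members, 1129 kept direction and call. The replicate numbers did not pair the samples (correlation of deviations −0.01), and with the replicate block 199 members were higher, with a median of 5.04. With 1 gene of each overlapping pair, an alternative chosen after seeing the data, 193 members were higher, with a median of 5.15.

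Membership depended on the pseudocount. With 0.1 RPM 122 of the 200 members stayed among the 200 highest and with 10 RPM 111. Leaving out a wild-type library kept 175 to 186. On TMM effective sizes 21 rather than 29 members were below wild type in P3 (10.5% against 21.9% of all rows), 65 rather than 63 above it (32.5% against 25.5%), and 36 rather than 43 above it in the CZ (18% against 19.3%). Members with no count in a wild-type P3 library could not be below it under any scaling. Low counts in P3 limit ratios of members near 1 RPM, and levels between genes are not per length.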
